A study of Saccharomyces cerevisiae with 8 samples.

Results

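Genes of inositol and phospholipid synthesis, 10 in number, are described here across 4 strains of the yeast Saccharomyces cerevisiae. They were chosen by gene symbol: INO1, ITR1, CHO1, PSD1, CHO2, OPI3 and EKI1, which make or import the building blocks of phospholipids, and INO2, INO4 and OPI1, which encode their regulators. Each of the 10 members had 1 probe set on the array, out of 5498 probe sets for 5449 yeast genes, and all 10 passed the filter on low signals that kept 5439 genes. The set was put together with earlier results of these data known, so it was in part selected on the low INO1 signal of the double deletion strain relative to the wild type. The contrast between these strains is therefore given as a description of the members, without p-values, and the count of members past the threshold there supports nothing.

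In yeast, inositol is made from glucose 6-phosphate by the enzyme that INO1 encodes, and it is joined to CDP-diacylglycerol to give phosphatidylinositol. Ino2 and Ino4 bind together to an element called UASINO in front of INO1 and many phospholipid genes and activate them. Opi1 represses the same genes through Ino2. When phosphatidic acid is plentiful, it holds Opi1 at the endoplasmic reticulum together with the membrane protein Scs2. Inositol in the medium draws on phosphatidic acid, Opi1 then enters the nucleus and INO1 is switched off.

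Affymetrix yeast arrays measured the messenger RNA of 4 groups, each with 2 arrays titled as biological replicates, 8 arrays in all. The wild type was W303. The double deletion was 6EA1, a strain in the W303 background that lacks RPL12A and RPL12B, both coding for ribosomal protein L12 of the large subunit. The plus RPL12A and plus RPL12B groups were 6EA1 carrying a high copy plasmid with the named gene, so both still carry the chromosomal deletions. Cultures of all 4 groups grew at 30 °C in a medium of 0.67% yeast nitrogen base, free of amino acids, with 2% glucose and the required supplements at 40 mg per liter, and were harvested in early log phase at an A600 of 0.5 to 0.6. The labels do not give the inositol or choline content of the medium, the marker genes of the strains or the number of transformants, and no strain with an empty plasmid was analysed here. Nothing says whether replicates came from separate transformants, so p-values measure the spread between these cultures. A change in RNA per cell and a change in a share of the cells cannot be told apart in such cultures.

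The RPL12 signals followed the labels. RPL12A averaged 5295 ± 36.7 (SD, n = 2) in the wild type and 5906 ± 246 with plus RPL12A, and lay at 28.8 and 6.88 on the double deletion arrays and at 8.18 and 15.5 with plus RPL12B. RPL12B averaged 6788 ± 355 in the wild type and 5957 ± 691 with plus RPL12B, and lay at 17.3 and 1.71 on the double deletion arrays and at 48.5 and 20.1 with plus RPL12A. Background, set by probe sets for the fission yeast Schizosaccharomyces pombe, was a signal of 7.42 to 8.72 per array. The signal of a 25S ribosomal RNA control set 3 arrays apart from the rest: it was 148, 277 and 312 on the replicate 2 arrays of the wild type, plus RPL12A and plus RPL12B, against 2476 to 5720 on the other 5 arrays. Both double deletion arrays were on the high side. All values below are MAS5 signals on a linear scale unless a log2 difference is named. Levels are compared between strains for one gene and not between genes, because each probe set has its own response. Adjusted p-values are 2-sided, from limma fitted to all 5439 genes with the Benjamini-Hochberg adjustment, with a threshold of 0.05 for a call. SE is the standard error that limma gives for a log2 difference.

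INO1 (YJL153C), the inositol 3-phosphate synthase, had the widest range among the 10 genes. Its signal was 883 and 1061 in the wild type, 238 and 156 in the double deletion, 493 and 704 with plus RPL12A and 484 and 424 with plus RPL12B. The wild type arrays were the highest and the double deletion arrays the lowest, and no array of these 2 groups overlapped with an array of any other group. The double deletion signal was still at least 19.98 times the background of its array. Between the double deletion and the wild type the log2 difference was -2.33 (SE 0.25), a signal 5.03-fold lower. The difference between the highest and the lowest group mean of INO1 ranked 21 among the 5439 genes tested. The plot of signals by array shows the order of the 4 strains for each gene.

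**Figure D1:**
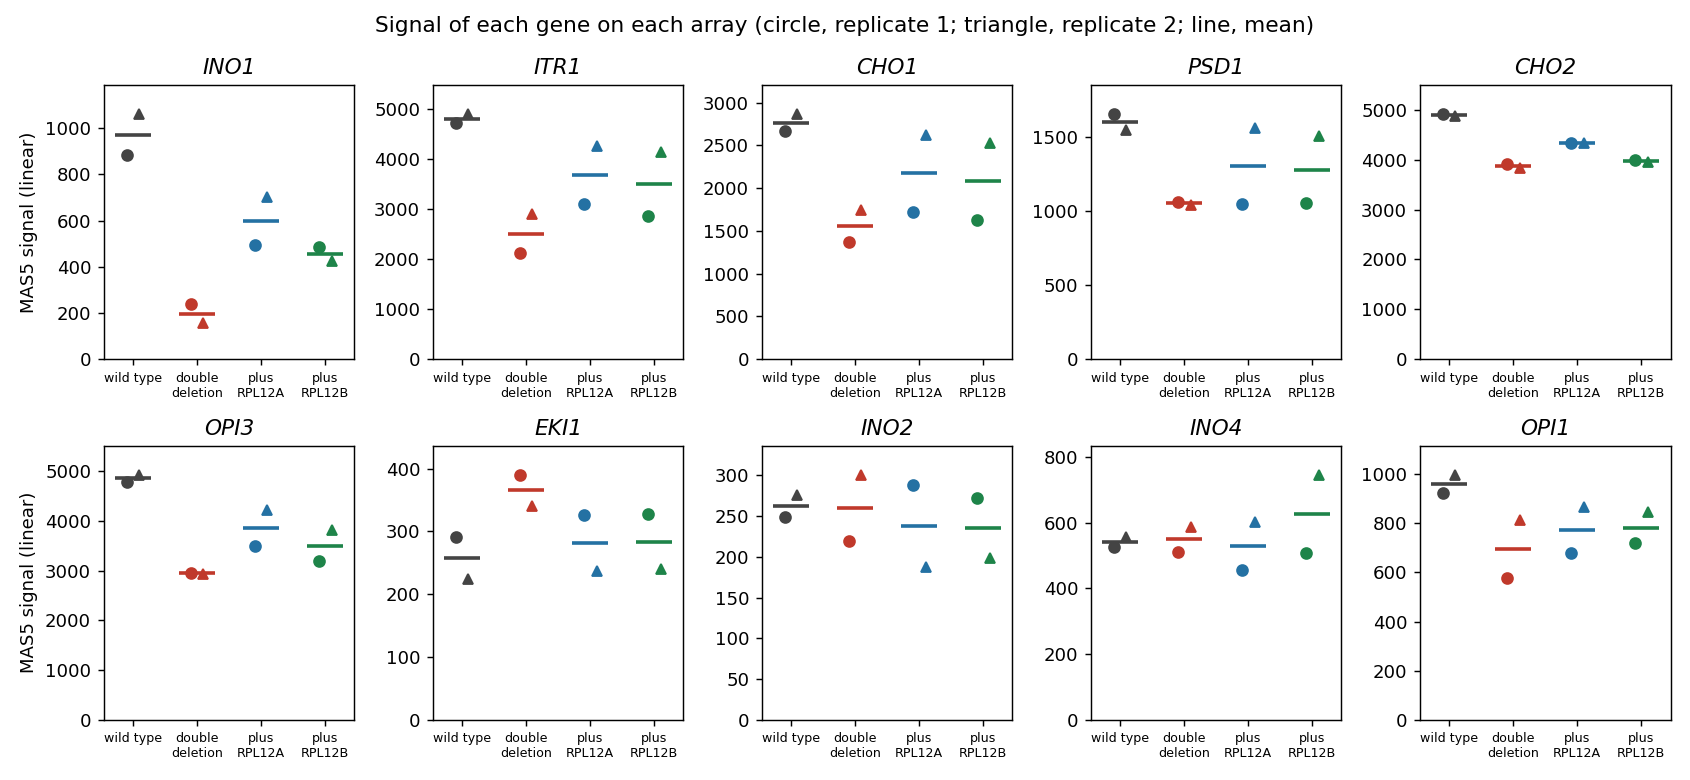
MAS5 signal on a linear scale (vertical axes from 0) for the 10 genes in the wild type, the double deletion, plus RPL12A and plus RPL12B; circles are replicate 1, triangles replicate 2 and lines the mean of both. INO1 falls into place as wild type (883 and 1061), plus RPL12A, plus RPL12B and double deletion (238 and 156), while INO2 and INO4 overlap between all groups.

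ITR1 (YDR497C), the main inositol transporter of the plasma membrane, had a signal of 4708 and 4888 in the wild type, 2109 and 2889 in the double deletion, 3105 and 4247 with plus RPL12A and 2852 and 4130.3 with plus RPL12B. Both wild type arrays were above all 6 arrays of the other strains, and plus RPL12B overlapped with the double deletion. The log2 difference of the double deletion from the wild type was -0.96 (SE 0.23), 1.94-fold lower.

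CHO1 (YER026C) encodes phosphatidylserine synthase, which opens the branch from CDP-diacylglycerol to phosphatidylserine. Its signal was 2669.9 and 2864 in the wild type, 1369 and 1739 in the double deletion, 1724 and 2621 with plus RPL12A and 1633 and 2534 with plus RPL12B. The wild type was again the highest group without overlap, and both plasmid strains overlapped with the double deletion. The log2 difference of the double deletion from the wild type was -0.84 (SE 0.26). PSD1 (YNL169C) encodes the mitochondrial decarboxylase that turns phosphatidylserine into phosphatidylethanolamine. It had 1651 and 1547 in the wild type and 1061 and 1039.7 in the double deletion, a log2 difference of -0.61 (SE 0.22). With plus RPL12A its signal was 1046 and 1561 and with plus RPL12B 1050.2 and 1501, so that replicate 1 of each plasmid strain lay by the double deletion and replicate 2 by the wild type.

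CHO2 and OPI3 encode the methyltransferases that make phosphatidylcholine from phosphatidylethanolamine with S-adenosylmethionine as donor, CHO2 for the first methyl group and OPI3 for the later ones. CHO2 (YGR157W) had 4910.1 and 4879.8 in the wild type, 3910 and 3829 in the double deletion, 4331 and 4338 with plus RPL12A and 3998 and 3950.2 with plus RPL12B. The 4 groups did not overlap, and both arrays of each group were close together. The log2 difference of the double deletion from the wild type was small, -0.34 (SE 0.053), and its sign changed with the scaling of the arrays, as given below. OPI3 (YJR073C) had 4785 and 4920.1 in the wild type, 2942 and 2941 in the double deletion, 3489 and 4215 with plus RPL12A and 3189 and 3807 with plus RPL12B. Its log2 difference between the double deletion and the wild type was -0.72 (SE 0.11), 1.65-fold lower. The plasmid strains lay between those groups and overlapped with each other. Signals of ITR1, CHO2 and OPI3 reached 4888 to 4920.1 on the wild type arrays, whose highest signals were 8564 and 8915, and whether the signal stays in proportion to the RNA at this height was not tested.

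EKI1 (YDR147W), the ethanolamine kinase of the CDP-ethanolamine branch, ran the other way. It had 291 and 224 in the wild type, 389.7 and 341 in the double deletion, 326 and 237 with plus RPL12A and 328 and 239 with plus RPL12B. The double deletion was the highest group without overlap, and its log2 difference from the wild type was 0.51 (SE 0.24). The wild type and both plasmid strains overlapped with one another.

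On the deposited scale the signals of the activator genes were alike in the 4 strains within the spread of the arrays. INO2 (YDR123C) had 249 and 277 in the wild type, 219 and 300.5 in the double deletion, 288 and 188 with plus RPL12A and 272 and 199 with plus RPL12B. INO4 (YOL108C) had 525 and 557 in the wild type, 509 and 587 in the double deletion, 456 and 602 with plus RPL12A and 506 and 744 with plus RPL12B. For both genes every pair of groups overlapped. The log2 difference of the double deletion from the wild type was -0.03 (SE 0.27, 95% interval -0.67 to 0.60) for INO2 and 0.02 (SE 0.22, 95% interval -0.49 to 0.53) for INO4. OPI1 (YHL020C), the repressor gene, had 923 and 997 in the wild type, 577 and 815 in the double deletion, 677 and 866 with plus RPL12A and 719 and 847 with plus RPL12B. Its wild type arrays were above the other 6, which overlapped with each other, and the log2 difference of the double deletion from the wild type was -0.48 (SE 0.20).

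Between the double deletion and the wild type 5 of the 10 genes passed the threshold, all lower: INO1, ITR1, CHO1, CHO2 and OPI3. Of all genes tested 32.5% were called in this comparison, 12.2% as lower and 20.4% as higher. Since the choice of genes used this comparison, nothing is read from the count. The arrays of both groups did not overlap for 8 of the 10 genes, against 75.5% of all genes. The median log2 difference of the 10 was -0.54, and that of all genes was 0.14. With single arrays left out in turn, the log2 difference ran from -2.64 to -2.02 for INO1, from -1.19 to -0.73 for ITR1, from -1.01 to -0.67 for CHO1, from -0.74 to -0.70 for OPI3 and from -0.35 to -0.32 for CHO2. The count of members past the threshold ran from 1 to 6 over these fits.

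**Figure D2:**
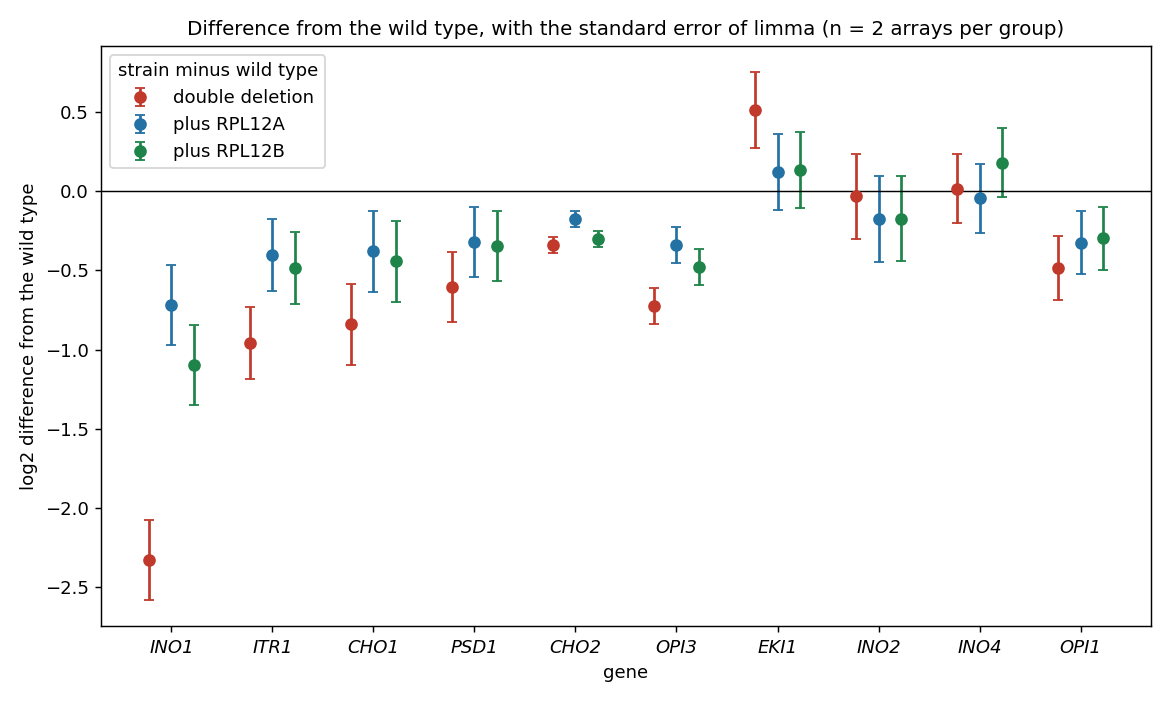
Log2 difference of each strain from the wild type (vertical axis) for the 10 genes (horizontal axis), points with the standard error of limma, 2 arrays per group. The double deletion lies at -2.33 for INO1 and between -0.96 and 0.51 for the other genes, and for INO1, ITR1, CHO1, PSD1, CHO2, OPI3, EKI1 and OPI1 both plasmid strains lie between it and 0.

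The size of these differences depended on how the arrays were set on a common scale. The deposited signals have one trimmed mean per array, on which the median of all genes was shifted by 0.14 between the double deletion and the wild type. That median was -0.06 when arrays were centred on the median of their yeast probe sets. It was -0.0025 under quantile normalization and 0.55 when arrays were centred on the hybridisation controls. These 18 probe sets detect RNAs added at the hybridisation step and not to the RNA samples. INO1 was at -2.53, -2.56 and -1.92 on these 3 scales and OPI3 at -0.92, -0.50 and -0.32. ITR1 was at -1.16, -0.77 and -0.55 and CHO1 at -1.04, -0.73 and -0.44. PSD1 was at -0.81, -0.61 and -0.20 and OPI1 at -0.69, -0.63 and -0.08. EKI1 was at 0.31, 0.12 and 0.92. CHO2 was at -0.54, -0.08 and 0.07, which turns its sign. INO2, at -0.23, -0.48 and 0.37, and INO4, at -0.19, -0.25 and 0.42, turned theirs as well. Neither INO2 nor INO4 was called on any of the scales. In all, 7 of the 10 genes had the same sign on the 4 scales.

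**Figure D3:**
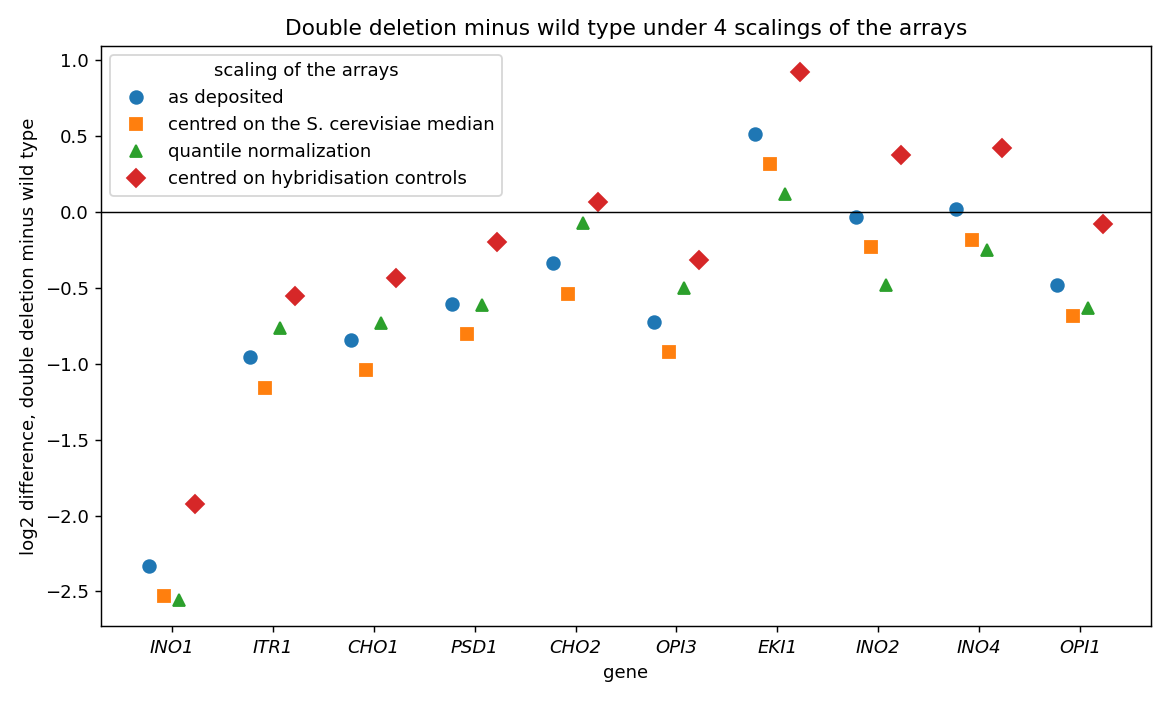
Log2 difference of the double deletion from the wild type (vertical axis) for the 10 genes under 4 scalings of the arrays, each with its own symbol. INO1 stays between -2.56 and -1.92, while CHO2, INO2 and INO4 have values on both sides of 0.

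The plasmid strains were compared with the double deletion to see what changed when RPL12A or RPL12B was given back. These comparisons share the double deletion arrays with the one used in choosing the genes. A higher INO1 signal in the plasmid strains is favoured by that choice, and the counts and p-values of the members are a description. None of the 10 genes was called by limma with plus RPL12A, where 0.221% of all genes were called, and 4 of the 10 had an unadjusted p under 0.05, as did 15.7% of all genes. None was called with plus RPL12B, where 0.11% of all genes were called, and 1 had an unadjusted p under 0.05, as did 7.21% of all genes. INO1 had the largest differences. With plus RPL12A its signal was 3.06-fold that of the double deletion, a log2 difference of 1.61 (SE 0.25, adjusted p = 0.103), and both arrays were above both double deletion arrays. With quantile normalization that difference was 1.83 and was called (adjusted p = 0.0425), and over all alternatives its adjusted p ran from 0.0425 to 0.753. With plus RPL12B the INO1 difference was 1.23 (SE 0.25, adjusted p = 0.354), also without overlap. The 95% intervals were 1.02 to 2.21 and 0.64 to 1.83 and left out 0. Such intervals take no account of how many genes were tested or of how the set was chosen.

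For the other genes the differences of plus RPL12A from the double deletion ran from -0.39 for EKI1 to 0.56 for ITR1, and those of plus RPL12B from -0.38 for EKI1 to 0.48 for ITR1. For OPI3 they were 0.38 (SE 0.11, adjusted p = 0.245) and 0.24 (SE 0.11, adjusted p = 0.642). With plus RPL12A 5 of the 10 genes had arrays that did not overlap with the double deletion, against 51.5% of all genes, and with plus RPL12B 4, against 37.9%. In both plasmid strains the mean log2 signal lay between those of the double deletion and the wild type for 8 of the 10 genes, all but INO2 and INO4. This was so for 52.2% of all genes, and since the genes were chosen knowing that INO1 was low in the double deletion, the count is a description.

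Against the wild type, plus RPL12B had 3 of the 10 genes called, all lower, where 9.49% of all genes were called 5.59% as higher and 3.9% as lower. INO1 fell by 1.10 on the log2 scale (SE 0.25, adjusted p = 0.0423), 2.14-fold lower. OPI3 fell by 0.48 (SE 0.11, adjusted p = 0.0446) and CHO2 by 0.30 (SE 0.053, adjusted p = 0.0234). Their arrays did not overlap with the wild type, which was so for 7 of the 10 genes and 60.3% of all genes. The comparisons of both plasmid strains with the wild type share its arrays with the comparison used in choosing the genes. The counts and p-values of the members there are therefore a description. The calls in plus RPL12B were also near the threshold. Each of the 3 genes lost its call without wild type replicate 1, wild type replicate 2, plus RPL12B replicate 1 or plus RPL12B replicate 2, with adjusted p up to 0.216 for INO1 and 0.213 for OPI3 without wild type replicate 2 and 0.141 for CHO2 without the same array. Without these arrays INO1 ran from -1.23 to -0.96, OPI3 from -0.61 to -0.35 and CHO2 from -0.31 to -0.29. INO1 lost its call too without either plus RPL12A array (adjusted p = 0.0511 and 0.0520) and OPI3 without either double deletion array (0.0735 and 0.0734), where their differences did not move. With hybridisation control centring the 3 differences were -0.85, -0.24 and -0.06 and were not called.

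Plus RPL12A had none of the 10 genes called by limma against the wild type, where 3.97% of all genes were called, 2.22% as higher and 1.75% as lower. An unadjusted p under 0.05 was seen for 3 of the 10 and for 25.1% of all genes, and arrays that did not overlap for 6 of the 10, all lower, and 58.9% of all genes. INO1 was at -0.72 (SE 0.25, adjusted p = 0.137), OPI3 at -0.34 (SE 0.11, adjusted p = 0.122) and CHO2 at -0.18 (SE 0.053, adjusted p = 0.0999). A call with one plasmid and none with the other does not show that the plasmids differ. In the comparison of plus RPL12B with plus RPL12A itself, limma called none of the 10, where 0.0184% of all genes were called. CHO2 alone had an unadjusted p under 0.05 (1.71% of all genes had one), and the arrays of 2 of the 10, CHO2 and INO1, did not overlap, against 20% of all genes. The difference of INO1 was -0.38 with a 95% interval of -0.97 to 0.21, and the largest difference of the other genes was 0.23 for INO4. The order of INO1 was thus wild type, plus RPL12A, plus RPL12B and double deletion. No neighbours in that order differed past the threshold, and among the comparisons that skip a place only plus RPL12B against the wild type did on the deposited scale. Plus RPL12A against the double deletion did so under other settings, as given above for quantile normalization.

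Replicate 2 had the higher signal for several members, in the plasmid strains and in part in the other groups. Replicate 2 minus replicate 1 on the log2 scale was 0.60 with plus RPL12A and 0.63 with plus RPL12B for CHO1, 0.45 and 0.53 for ITR1, 0.58 and 0.52 for PSD1 and 0.27 and 0.26 for OPI3. It was -0.61 and -0.45 for INO2 and -0.46 and -0.45 for EKI1, and 0.0023 and -0.02 for CHO2. INO1 had 0.51 and -0.19. The gaps of INO4 and OPI1 were above 0 in every group, from 0.09 in the wild type to 0.56 with plus RPL12B for INO4 and from 0.11 in the wild type to 0.50 in the double deletion for OPI1. In the wild type, where the replicates also differ in the 25S control, the same gap was 0.10 for CHO1, 0.05 for ITR1, -0.09 for PSD1, 0.04 for OPI3, 0.15 for INO2 and -0.38 for EKI1. In the double deletion, where both arrays had a high 25S signal, it was 0.35 for CHO1, 0.45 for ITR1, -0.03 for PSD1, -0.0005 for OPI3, 0.46 for INO2 and -0.19 for EKI1. CHO1, ITR1 and EKI1 thus had gaps of 1 sign in all groups. The replicate 2 arrays of the plasmid strains are those with the low 25S control signal, 277 and 312 against 5720 and 4933 for replicate 1, and its part in these gaps was not tested.

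Among the 5 arrays with a high 25S signal, a subset chosen after seeing the data, the plasmid strains had 1 array each. There plus RPL12A differed from the double deletion by 1.36 for INO1, 0.33 for ITR1, 0.25 for OPI3, 0.16 for CHO1 and -0.0063 for PSD1. Plus RPL12B differed from it by 1.33, 0.21, 0.12, 0.08 and -0.0001 for the same genes. INO1 was the one gene of the 10 whose difference from the double deletion stayed above 1 in both plasmid strains. The double deletion differed from the wild type in this subset by -2.20 for INO1, -0.93 for ITR1, -0.79 for CHO1, -0.70 for OPI3, -0.65 for PSD1 and -0.34 for CHO2. In the low 25S arrays there is 1 wild type array, 1 of each plasmid strain and none of the double deletion, so no comparison with the double deletion can be made there.

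The wider pathway was followed in 4 lists of other genes, all of which were measured and tested. These lists too were chosen with earlier results of these data known, so their counts and p-values are a description. Of 10 further genes with UASINO or under Ino2 and Ino4, 3 were called lower and 0 higher when the double deletion was set against the wild type, and 7 were not called; of all genes 12.2% were called lower and 20.4% higher. CDS1, the CDP-diacylglycerol synthase whose product feeds both CHO1 and phosphatidylinositol synthesis, had 1616 and 1634 in the wild type and 983 and 1231 in the double deletion and fell by 0.56 (SE 0.15, adjusted p = 0.0261). ACS2, which makes acetyl-CoA, fell by 0.43 (SE 0.060, adjusted p = 0.00547), and in plus RPL12B against the wild type by 0.33 (SE 0.060, adjusted p = 0.0255). FAS1, a fatty acid synthase subunit, fell by 0.32 (SE 0.082, adjusted p = 0.0260), and was at 0.09 with hybridisation control centring. On that scale CDS1 was at -0.16 and ACS2 at -0.03, and 0 genes of the list were called lower and 2 higher. Among all 5439 genes 65 were called lower and 2821 higher there. With quantile normalization ACS2 was at -0.23. In the double deletion ACS2 kept its call without each array, while CDS1 and FAS1 lost theirs without 3 of the 8 arrays, with adjusted p up to 0.144 and 0.139 without double deletion replicate 1. The ACS2 call in plus RPL12B was kept without 2 of the 8 arrays only, with adjusted p up to 0.150 without wild type replicate 1. The list had a median log2 difference of -0.27, which became -0.08 under quantile normalization and 0.13, of the other sign, when arrays were centred on hybridisation controls, where the median of all genes was 0.55.

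Of 18 genes for other steps of phospholipid and triglyceride synthesis, 5 were called higher in the double deletion and 0 lower, where 20.4% of all genes were called higher and 12.2% lower. APP1, a phosphatidate phosphatase, had 435 and 441 in the wild type and 921 and 847 in the double deletion and rose by 1.01 (SE 0.12, adjusted p = 0.00418). It stayed above the wild type in both plasmid strains, with log2 differences of 0.68 (adjusted p = 0.0379) with plus RPL12A and 0.79 (adjusted p = 0.0206) with plus RPL12B, and its sign was the same on the 4 scales. LPP1, another lipid phosphate phosphatase, rose by 0.79 (adjusted p = 0.0355). PGS1 and CRD1, which lead to cardiolipin in mitochondria, rose by 0.64 (adjusted p = 0.0454) and 0.60 (adjusted p = 0.0405). LPP1, PGS1 and CRD1 were each called on 2 of the 4 scales, and were at 0.40, 0.235 and 0.27 with quantile normalization. DGA1, the diacylglycerol acyltransferase, rose by 0.57 in the double deletion (adjusted p = 0.0144) and by 0.53 in plus RPL12B against the wild type (adjusted p = 0.0402). APP1 kept its call in the double deletion whichever array was left out. In the double deletion the adjusted p rose to 0.198 for LPP1 and 0.190 for PGS1 without double deletion replicate 1, and to 0.195 for CRD1 without wild type replicate 1. In the plasmid strains the call of APP1 was kept without 2 of the 8 arrays for plus RPL12A and without 5 for plus RPL12B, with adjusted p up to 0.199 and 0.125 without wild type replicate 1. That of DGA1 in plus RPL12B was lost whichever array was left out, with adjusted p up to 0.180 without wild type replicate 1. The list median in the double deletion was 0.225, and 5 higher with 0 lower became 1 higher and 1 lower after median centring (median 0.02). Quantile normalization gave 2 higher and 1 lower (median 0.06), and hybridisation control centring 14 higher and 0 lower (median 0.63). Among all 5439 genes 548 were called higher and 1206 lower with median centring, and 391 and 427 with quantile normalization. With hybridisation control centring 2821 of all genes were called higher and 65 lower, and their median was 0.55.

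Of 16 genes of inositol uptake, recycling and phosphorylation, 5 were called higher in the double deletion and 0 lower, again against 20.4% and 12.2% of all genes. NTE1, which breaks down phosphatidylcholine, had 548 and 401 in the wild type and 924 and 889.7 in the double deletion and rose by 0.95 (SE 0.19, adjusted p = 0.0135). ARG82, a kinase of inositol polyphosphates, rose by 0.74 (adjusted p = 0.0269), FAB1, a kinase of phosphatidylinositol 3-phosphate, by 0.74 (adjusted p = 0.0133), and PIK1, a phosphatidylinositol 4-kinase, by 0.57 (adjusted p = 0.0120). NTE1 was called on all 4 scales, FAB1 and PIK1 on 3 and ARG82 on 2. The list median was 0.29 and fell to 0.05 with quantile normalization, where 1 gene was called higher and 1 lower. Median centring gave 3 higher and 1 lower (median 0.09), and hybridisation control centring 13 higher and 0 lower (median 0.69). Among all 5439 genes 391 were called higher and 427 lower with quantile normalization, and 548 and 1206 with median centring. With hybridisation control centring 2821 of all genes were called higher and 65 lower, and their median was 0.55. Without double deletion replicate 1 the adjusted p was 0.0837 for NTE1, 0.157 for ARG82 and 0.0902 for FAB1, and without wild type replicate 2 it was 0.0715 for PIK1.

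Of 14 genes that act on Opi1 or the INO genes or take part in the unfolded protein response, 2 were called lower in the double deletion and 0 higher, a share near the 12.2% of all genes called lower. SCS2, which encodes the membrane partner of Opi1, had 3145 and 3219 in the wild type and 2366 and 2431 in the double deletion and fell by 0.41 (SE 0.072, adjusted p = 0.00915). It fell by 0.35 in plus RPL12B against the wild type (SE 0.072, adjusted p = 0.0349). With hybridisation control centring its difference in the double deletion was -0.0030. EUG1, a protein disulfide isomerase of the endoplasmic reticulum, fell by 0.53 (SE 0.13, adjusted p = 0.0218). The list median was -0.06, and 0.34 with hybridisation control centring. Median centring gave 5 lower and 0 higher, and quantile normalization 2 lower and 0 higher. Hybridisation control centring gave 0 lower and 5 higher, with EUG1 at -0.12. Among all 5439 genes 1206 were called lower and 548 higher with median centring, and 427 and 391 with quantile normalization. With hybridisation control centring 65 of all genes were called lower and 2821 higher. Without wild type replicate 2 the adjusted p of SCS2 in the double deletion was 0.0702, and without wild type replicate 1 that of EUG1 was 0.114. The call of SCS2 in plus RPL12B was lost whichever array was left out, with adjusted p up to 0.180 without wild type replicate 2. No gene of the 4 lists was called by limma in the comparisons of a plasmid strain with the double deletion, where 13 and 1 of their 58 genes had an unadjusted p under 0.05, for plus RPL12A and plus RPL12B in that order, against 15.7% and 7.21% of all genes.

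The genes whose log2 signals were most correlated with those of INO1 over the 8 arrays were looked for among 454 other genes whose group means spanned at least 1 log2 unit. They were RPS22B (Pearson r = 0.97), PHO84 (0.96), YMC1 (0.95), OPT2 (0.95), SAM4 (0.95), SPL2 (0.94), YHI9 (0.93) and SUL1 (0.93). RPS22B encodes a protein of the small ribosomal subunit, PHO84 a phosphate transporter, SPL2 a regulator of phosphate transport and SUL1 a sulfate transporter. YMC1 encodes a mitochondrial carrier, OPT2 an oligopeptide transporter and SAM4 a methyltransferase that uses S-adenosylmethionine to make methionine. With quantile normalization 6 of the 8, all but SPL2 and SUL1, were again among the 8 highest. The 8 arrays share 4 strains, so these values mostly describe the step from the wild type to the double deletion and the place of the plasmid strains between them. Among the members, r with INO1 was 0.91 for OPI3, 0.88 for CHO2, 0.80 for ITR1, 0.75 for CHO1, 0.74 for PSD1, 0.60 for OPI1, -0.07 for INO4, -0.14 for INO2 and -0.70 for EKI1. With quantile normalization r was 0.36 for CHO2, 0.43 for INO2, 0.37 for INO4 and -0.33 for EKI1. It ran from 0.72 for OPI1 to 0.90 for OPI3 among the other members. OPT2 had 1266 and 1352 in the wild type, 599 and 473 in the double deletion, 694 and 852 with plus RPL12A and 779 and 717 with plus RPL12B. As for INO1, the wild type was highest and the double deletion lowest, without overlap with the other groups. All 8 genes had this pattern, which the choice by correlation favours.

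**Figure D4:**
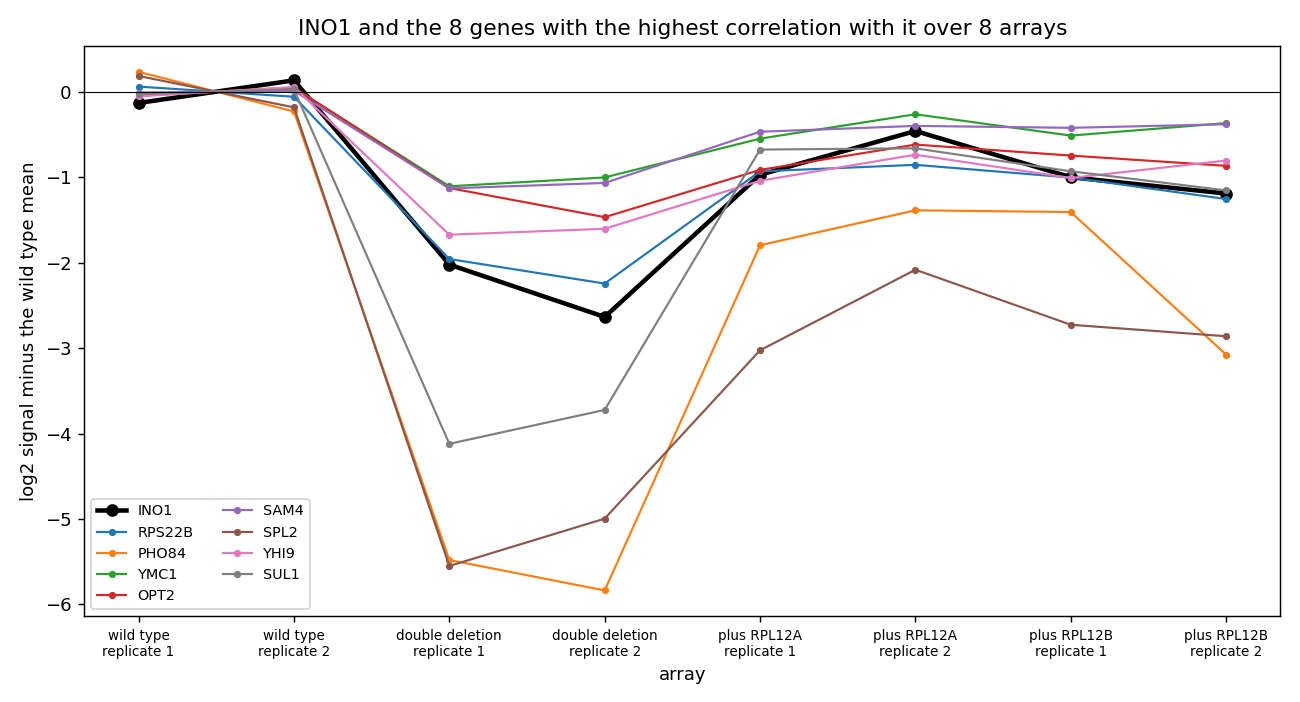
Log2 signal minus the mean of the wild type (vertical axis) on the 8 arrays (horizontal axis) for INO1, in black, and the 8 genes most correlated with it; lines only guide the eye. All 9 genes are lowest on the double deletion arrays, where PHO84, SPL2 and SUL1 go further down than INO1, and the plasmid arrays lie between those and the wild type.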

How the data were processed

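For each array the deposited file gives a linear intensity per probe set. The submitters' processing notes name MAS5 as the tool, without a version. The deposited intensity values have a 2% trimmed mean of 500.2 on each array, so the mean RNA signal is held equal by construction and a change in total mRNA per cell would not show. Biotin-labelled cRNA came from 10 ug of total RNA. Scanner files were not used here.

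Of 10928 probe sets, 5498 were assigned to S. cerevisiae through their gene ID (12 symbols brought up to date) and 1746 to S. pombe. For 47 genes with several probe sets the one with the highest mean log2 signal was used. Background was the 95th percentile of the S. pombe signals, and genes above it on at least 2 arrays were tested. The fit used log2 signals and limma 3.58.1 under R 4.3.3 (lmFit, eBayes with an intensity trend), with all 8 arrays and 4 groups, 4 residual and 3.23 prior degrees of freedom, and the Benjamini-Hochberg adjustment over 5439 genes in each of 6 comparisons. With 2 arrays per group an exact test of a single gene cannot go below p = 0.333. The script was tested on simulated data. Python 3.11.15 with matplotlib 3.10.9 drew the figures.

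The members and lists were chosen with earlier results of these data known. The rule for naming genes took all 10 members, up to 4 called genes per list and kind of comparison by size of difference, and the 8 genes most correlated with INO1. Alternatives were 3 other scalings, log2 of the signal plus 16, signals floored at background, no filter, the 99th percentile as filter, no trend, robust variances, only the 4 compared arrays, the replicate number as a block, the mean of all probe sets, the 25S split as a block, a threshold of 0.01 and leaving out each array. A fit of only the 5 arrays whose 25S signal was high was added after seeing the data. No promoter or protein sequences were used here, so the planned search for UASINO motifs was not run, and no genome positions are printed because no build comes with the arrays.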

Additional observations from a re-analysis of the deposited data

How the results depend on the processing

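The number of members called was tried under 23 alternatives in each comparison. For the double deletion against the wild type, 5 were called, and 7 with median centring, 2 with quantile normalization, 8 with the replicate number as a block (replicate block), 3 at a threshold of 0.01 and 1 to 6 without 1 array. For plus RPL12B against the wild type, 3 were called, and 4 with the replicate block (ITR1 added, adjusted p = 0.0317), 1 with quantile normalization, 0 with hybridisation control centring, with no trend, with only the 4 compared arrays, with only the 5 arrays with a high 25S signal and at a threshold of 0.01, and 0 to 2 without 1 array. For plus RPL12A against the double deletion, 0 became 1 with quantile normalization and 1 with the replicate block, INO1 each time (adjusted p = 0.0425 and 0.0472). For plus RPL12A against the wild type, 0 became 2 with the replicate block (OPI3 and CHO2) and 1 with the 25S split as a block (OPI3). The counts of 0 in the other 2 comparisons stayed 0 under the 23 alternatives. The share of all genes called moved with the setting too. Between the double deletion and the wild type it was 32.5% in the main fit and 32.2% after median centring. It was 15% after quantile normalization and 43.4% under the replicate block, so the rise to 8 members came with more calls among all genes. Between plus RPL12A and the wild type this share was 3.97% in the main fit and 13.2% under the replicate block. The replicate numbers are shared by the groups in the labels, and nothing there says that a number marks a shared batch or day. The deviations of same-numbered arrays correlated at 0.33, 0.41, 0.34, 0.29 and 0.79 in 5 pairs of groups and at 0.05 in the pair of double deletion and plus RPL12B. Since 1 pair was under 0.1, the main fit has no block, and whether arrays of 1 number share a source was not settled. Of 1320 log2 differences of members under the alternatives, 1 called value changed its sign, CHO2 in the double deletion with hybridisation control centring (0.066), and 76 values called in neither fit did. The cause of these changes was not tested.

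Over all genes the calls of the double deletion against the wild type, 1770, ran from 810 (only the 5 arrays with a high 25S signal) to 2886 (hybridisation control centring), and from 238 to 1965 without 1 array. With hybridisation control centring 2821 of the 2886 were higher, with quantile normalization 391 of 818, and with median centring 548 of 1754. For plus RPL12B against the wild type, 516 became 23 on the 5 arrays, 1219 with the replicate block and 14 to 263 without 1 array. For plus RPL12A against the wild type, 216 became 22 on the 5 arrays, 728 with the 25S split as a block and 12 to 281 without 1 array. With the replicate block 79 in place of 12 genes were called for plus RPL12A and 17 in place of 6 for plus RPL12B against the double deletion. The number of arrays, 2 per group, limits the precision throughout.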

Other observations

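The arrays also carry probe sets for S. pombe genes with the names of 4 members. Their signals ran up to 7.15 for cho1, 0.670 for cho2, 2.05 for psd1 and 6.43 for itr1, and were above the background of the array on 0 of 8 arrays each.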
